A study of Homo sapiens with 2 samples.

Results

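The 330 SETMAR-HA binding sites whose centre lay in an intron made up 43.2% of the 764 peaks in the deposited ChIP-seq list. They were taken by the category "intron" in the annotation column of that list, whichever gene or transcript the intron belonged to. The 398 peaks annotated as intergenic (52.1%) were used for comparison, and the remaining peaks lay at promoters (27), transcription termination sites (3), 3' UTRs (3) and non-coding exons (3). The cells were HAP1, an established human line of leukaemic origin that carries almost a haploid genome, and their SETMAR gene had been knocked out with CRISPR/Cas9. HA-tagged SETMAR was put back on a doxycycline-inducible Sleeping Beauty construct in a polyclonal line, so both samples came from cells without the endogenous protein, and induction lasted 24 h. The labels list doxycycline at 0.2, 0.5, 1 and 2 µg/ml without saying which dose the sequenced cells received. There was 1 ChIP sample made with a rabbit polyclonal anti-HA antibody, labelled as paired-end, and 1 sample of input chromatin made without antibody, labelled as single-end. The study describes 2 biological replicate experiments, and whether they were pooled is not given in the sources used here, so the spread between replicates is unknown.

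SETMAR joins a histone methyltransferase SET domain to the DNA-binding transposase of an extinct mariner element, Hsmar1. The transposase domain binds the inverted terminal repeats (ITRs) that once marked both ends of the transposon. The genome keeps many copies of these ends, some lone and others in MADE1, a short non-autonomous element that is little more than an ITR pair facing each other. Copies of such elements within transcribed genes are carried in the introns of the primary transcript. An ITR was counted here as a stretch with at most 3 mismatches to the 19-nt consensus on either strand, and ITRs of opposite orientation within 500 bp of each other as a pair.

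The consensus is shown first, since almost every peak lay on a match to it, followed by 4 diverged elements beneath intron peaks, which show how far a site in a peak could depart from it. The sequences come from the GRCh38 (hg38) reference genome, not from reads of these cells, and are written 5′ to 3′ with up to 10 bases on each side. Capitals mark the ITR. In a pair the second ITR appears as the reverse complement of the consensus. LINC00354 held a lone ITR of 3 mismatches and DGKB a lone ITR of 2. ARSG and RARB held pairs in which both ITRs differed from the consensus.
Consensus ITR: GGTGCAAAAGTAATTGCGG
LINC00354 (chr13:111894558-111894596, + strand): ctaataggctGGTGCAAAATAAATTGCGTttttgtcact
DGKB, intron 9 (chr7:14693543-14693581, + strand): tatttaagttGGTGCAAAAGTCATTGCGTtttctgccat
ARSG, intron 9 (chr17:68386985-68387070, + strand): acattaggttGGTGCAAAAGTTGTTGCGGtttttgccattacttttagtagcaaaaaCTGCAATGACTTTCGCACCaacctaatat
RARB, intron 4 (chr3:25270803-25270904, + strand): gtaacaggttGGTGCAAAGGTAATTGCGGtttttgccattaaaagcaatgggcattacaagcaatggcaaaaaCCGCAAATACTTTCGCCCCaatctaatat

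Of the 330 intron peaks, 329 (99.7%, 95% exact Clopper-Pearson interval 98.3 to 100) overlapped an ITR after extension by 500 bp on each side. The best ITR had 0 mismatches in 139 peaks, 1 in 160, 2 in 28 and 3 in 2, the last being those of BRINP3 and LINC00354. The distance from the peak centre to the middle of the nearest ITR had a median of 18 bp, an interquartile range of 9 to 37 bp and a maximum of 183 bp. Peak width ran from 200 to 1100 bp (median 400 bp) in steps of the 100 bp bins from which the peaks were called. Without a height or score in the list, the depth of reads at a peak is unknown and width is the only measure of a peak's extent. The exception without an ITR was the peak at chr3:197847601-197848000, which lay over the 411 bp intron 11 of LRCH3, a leucine-rich repeat protein, and reached 129 bp into the neighbouring exon. Of the 81 input peaks, 0 lay in an intron that held a ChIP peak, but peaks found in the input had been removed from the ChIP list by the authors.

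Many intron peaks covered an inverted pair of ITRs. A pair within 500 bp was found in 189 of the 330 peaks and had a median length of 66 bp, with an interquartile range of 65 to 68 bp. The length was 60 to 75 bp in 130 of them and over 300 bp in 17. The 2 ITRs of a pair were seldom alike. In 147 of the 189 pairs they differed in their number of mismatches. Both had 0 mismatches in 9 pairs, while an ITR of 0 mismatches faced an ITR of 1 to 3 mismatches in 73. The remaining pairs had a better ITR of 1 mismatch (92 pairs), 2 mismatches (14) or 3 (1). The other 140 peaks with an ITR held no pair, and 139 of them held a lone ITR. The median width was 500 bp where the best ITR had 0 mismatches, both for 83 paired peaks and for 56 peaks without a pair. It was 400 bp for 92 paired peaks and 300 bp for 68 unpaired peaks with a best ITR of 1 mismatch, and 500 bp for 13 paired peaks and 300 bp for 15 unpaired peaks with a best ITR of 2. Among intergenic peaks the median was 400 bp with and without a pair, both at 1 mismatch (109 and 71 peaks) and at 2 (28 and 13). Widths of paired and unpaired peaks were not tested against each other.

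The ITR content of intron peaks was compared with that of intergenic peaks, and no difference passed the threshold of 0.05. An ITR of 0 mismatches was present in 42.1% of intron peaks (139 of 330, 95% Wilson interval 36.9 to 47.5) and in 43.7% of intergenic peaks (174 of 398, 38.9 to 48.6). The difference of -1.60 percentage points had an interval of -8.75 to 5.61 (Fisher's exact test, two-sided, adjusted p = 0.751). A pair was present in 57.3% of intron peaks (51.9 to 62.5) and 61.6% of intergenic peaks (56.7 to 66.2), a difference of -4.29 points with an interval of -11.4 to 2.86 (Fisher's exact test, adjusted p = 0.401). When only ITRs of at most 2 mismatches were counted, a pair was present in 123 of 330 intron peaks and 186 of 398 intergenic peaks, a difference of -9.46 points whose interval of -16.5 to -2.25 did not include 0 (Fisher's exact test, adjusted p = 0.0527). Peaks at least 500 bp wide made up 43.3% of the intron peaks and 43.7% of the intergenic peaks, a difference of -0.385 points with an interval of -7.57 to 6.83 (Fisher's exact test, adjusted p = 0.940). The p-values of the main setting were adjusted over the 17 comparisons of the report by the Benjamini-Hochberg method. Those of an alternative, such as the limit of 2 mismatches, were adjusted over the comparisons made under that alternative. Members of the same list do not replicate the experiment. Each p therefore speaks of this list alone, and each interval covers counting error only.

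To ask whether an ITR inside an intron was bound as often as an ITR between genes, ITRs within 500 bp of each other were joined into loci and placed in the GENCODE release 44 annotation. Of the 8131 ITR loci on chromosomes 1 to 22 and X, 764 (9.4%) lay in a peak. The share was 45.6% for loci whose best ITR had 0 mismatches, 13.1% with 1, 2.57% with 2 and 0.31% with 3. The 4361 loci in introns followed the same order. An intron locus lay in a peak in 183 of 397 cases with 0 mismatches (46.1%, 95% Wilson interval 41.3 to 51.0), against 125 of 288 intergenic loci (43.4%, 37.8 to 49.2). With 1 mismatch the shares were 13.4% of 1459 intron loci (11.8 to 15.3) and 12% of 1102 intergenic loci (10.2 to 14). With 2 mismatches they were 2.26% of 1460 (1.61 to 3.16) and 2.96% of 1149 (2.13 to 4.11), and with 3 mismatches 2 of 1045 intron loci and 3 of 812 intergenic loci. The difference between the locations passed the threshold of 0.05 in none of the 4 classes (Fisher's exact test, two-sided, adjusted p = 0.698, 0.401, 0.401 and 0.747 for 0 to 3 mismatches). The interval of the difference was -4.84 to 10.1 points for 0 mismatches and -1.18 to 4.02 points for 1.

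**Figure D1:**
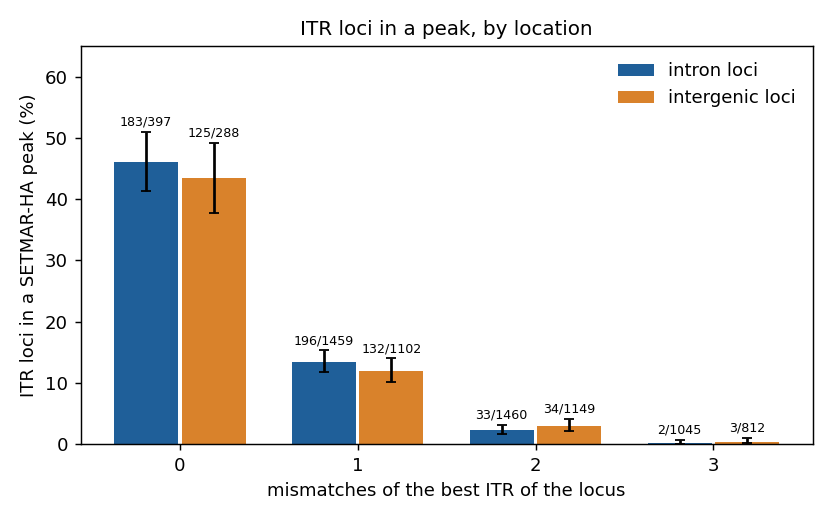
Share of ITR loci that lay in a SETMAR-HA peak (y axis, %), by the number of mismatches of the best ITR of the locus (x axis), for intron loci (blue) and intergenic loci (orange). Error bars are 95% Wilson intervals and the numbers above them are loci in a peak of all loci. The intervals of intron and intergenic loci overlap in every class, at 46.1% and 43.4% with 0 mismatches and 13.4% and 12% with 1.

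Location was also compared in a logistic model over all 8131 loci, with mismatch class, pairing and chromosome X as further terms. The odds that an intron locus lay in a peak were 0.983 times those of an intergenic locus (95% interval 0.823 to 1.17, which includes 1). Loci placed in promoters or exons formed a further location, with odds 1.49 times those of an intergenic locus (1.05 to 2.12, not adjusted). For a paired locus the odds were 1.99 times those of an unpaired locus (1.68 to 2.36), and for a locus on X 0.0869 times those of an autosomal locus (0.0400 to 0.189). Of the 167 intron loci on X, 2 lay in a peak. These were in RTL4, a gene derived from the Gag of a retrotransposon, with an ITR of 0 mismatches in intron 2 (chrX:112259301-112259800), and in CYBB, the catalytic subunit of the phagocyte NADPH oxidase, with a best ITR of 1 mismatch in intron 8 (chrX:37803001-37803500).

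The annotation used decides which sites count as intronic. Of the 330 peaks of the deposited intron category, 310 had their centre in a GENCODE intron, 14 in a GENCODE promoter, 3 in an exon and 3 outside genes. Conversely, 100 of the 398 peaks of the intergenic category had their centre in a GENCODE intron. The intron loci compared here therefore included 414 in a peak. With introns of protein-coding genes only, the odds ratio for introns was 1.11 (95% interval 0.937 to 1.33).

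Within introns, loci that held an ITR pair lay in a peak more often than loci with a lone ITR. Intergenic loci with 1 mismatch went the same way, with counts given under the other observations. With a best ITR of 1 mismatch, 119 of 654 paired loci (18.2%, 95% Wilson interval 15.4 to 21.3) and 76 of 802 solo loci (9.48%, 7.64 to 11.7) lay in a peak, a difference of 8.72 points (interval 5.17 to 12.4; Fisher's exact test, two-sided, adjusted p = 2.39e-05). With 0 mismatches the shares were 50.5% of 216 paired loci (43.8 to 57.1) and 41.0% of 178 solo loci (34.0 to 48.4), and the difference of 9.45 points did not pass the threshold (interval -0.432 to 19; Fisher's exact test, adjusted p = 0.289). That difference was 11.2 points on autosomes only (1.14 to 21.0, Fisher's exact test, adjusted p = 0.152) and 4.65 points with peaks at least 500 bp wide only (-4.12 to 13.1). With 2 mismatches the shares were 16 of 455 and 17 of 1001. The difference of 1.82 points had an interval of 0.143 to 4.03, which excludes 0, but did not pass the threshold (Fisher's exact test, adjusted p = 0.208). With 3 mismatches the shares were 1 of 126 and 1 of 916 (Fisher's exact test, adjusted p = 0.401).

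**Figure D2:**
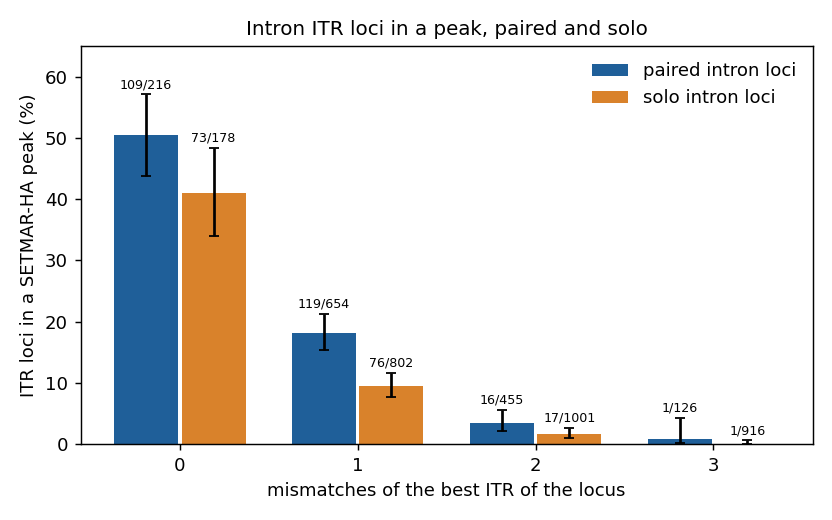
Share of intron ITR loci that lay in a SETMAR-HA peak (y axis, %), by the number of mismatches of the best ITR (x axis), for loci with an inverted pair (blue) and loci with a lone ITR (orange). Error bars are 95% Wilson intervals and the numbers are loci in a peak of all loci. The bars for 1 mismatch stand at 18.2% and 9.48% with intervals that do not overlap, while those for 0 mismatches overlap.

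Intron loci of the same number of mismatches differed in how often they lay in a peak, by the substituted base. Substitutions are given with the consensus base first then the position, where 1 is the 5′ base of the consensus, and then the base of the site. In intron 2 of CEP112 an ITR of 0 mismatches faced an ITR with C17T, and in intron 19 C17T faced A13G and C17T. In intron 2 of DGKB an ITR of 0 mismatches faced G18A, while the lone ITR of intron 9 printed above carried A12C and G19T. These elements are shown as examples from genes chosen for their peaks and say nothing of how often such a change was bound.

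CEP112 encodes a centrosomal protein and DGKB a diacylglycerol kinase. Among solo intron loci with 1 mismatch, C17T was the most frequent change (252 of 802 loci) and lay in a peak once (1 of 252, 0.397%, 95% Wilson interval 0.0701 to 2.21). G18A, at the neighbouring position, was nearly as frequent and lay in a peak in 38 of 246 loci (15.4%, 11.5 to 20.5). The other changes at positions 16 to 19 that were seen in at least 10 loci ranged widely, with G16A in a peak in 6 of 12 loci, G19T in 5 of 12, G18T in 6 of 41, G19A in 1 of 20 and C17A in 0 of 19. G2A and G4A, at the outer end, lay in a peak in 0 of 16 and 0 of 11 loci, whose intervals reach 19.4% and 25.9%. In paired intron loci, where the substitution is that of the best ITR, C17T lay in a peak in 15 of 186 loci (8.06%, 4.95 to 12.9) and G18A in 46 of 167 (27.5%, 21.3 to 34.8). Without the loci whose best ITR carried C17T, 104 of 468 paired and 75 of 550 solo loci with 1 mismatch lay in a peak. This difference of 8.59 points (Fisher's exact test, unadjusted p = 0.000373) came from a comparison chosen after seeing the data. The other ITR of a pair could still carry C17T.

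A solo ITR with 0 mismatches had the same 19 bases in every intron, so its neighbouring bases could be compared directly. At 20 positions, 9 outside and 11 inside the ITR, at least 60% of the 327 such ITRs of the genome shared a base. The number of these 20 positions at which an ITR departed from the shared base was counted as its neighbouring mismatches.

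Intron ITRs with few such mismatches lay in a peak more often. With at most 2 mismatches among the 20 bases, 44 of 77 ITRs lay in a peak (57.1%, 95% Wilson interval 46.0 to 67.6), and with more mismatches 29 of 101 (28.7%, 20.8 to 38.2). The difference was 28.4 points (interval 13.8 to 41.5; Fisher's exact test, two-sided, adjusted p = 0.00172). In finer steps the share was 55.6% of 18 ITRs with 0 mismatches, 57.6% of 59 with 1 or 2, 37.8% of 37 with 3 or 4, 23.4% of 47 with 5 to 7 and 23.5% of 17 with 8 or more. On the inner side alone the share was 51.1% of 47 ITRs with 0 mismatches, 47.7% of 44 with 1, 57.1% of 21 with 2 and 24.2% of 66 with 3 or more. On the outer side it was 38.4% of 73 with 0, 58.7% of 46 with 1, 41.4% of 29 with 2 and 20.0% of 30 with 3 or more, so on neither side did the share fall with each added mismatch. When the limit was set at 1 mismatch the difference was 16.6 points and did not pass the threshold (Fisher's exact test, unadjusted p = 0.0577), and at 4 mismatches it was 27.4 points (unadjusted p = 0.000437).

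Among intergenic solo ITRs of 0 mismatches, 24 of 65 lay in a peak where at most 2 neighbouring bases differed and 26 of 63 where more did, a difference of -4.35 points (interval -20.7 to 12.3). The ratio of the intron odds ratio to the intergenic odds ratio was 3.97 (95% interval 1.54 to 10.2, logistic model of 306 ITRs with an interaction term), a test chosen after seeing the data and not adjusted.

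**Figure D3:**
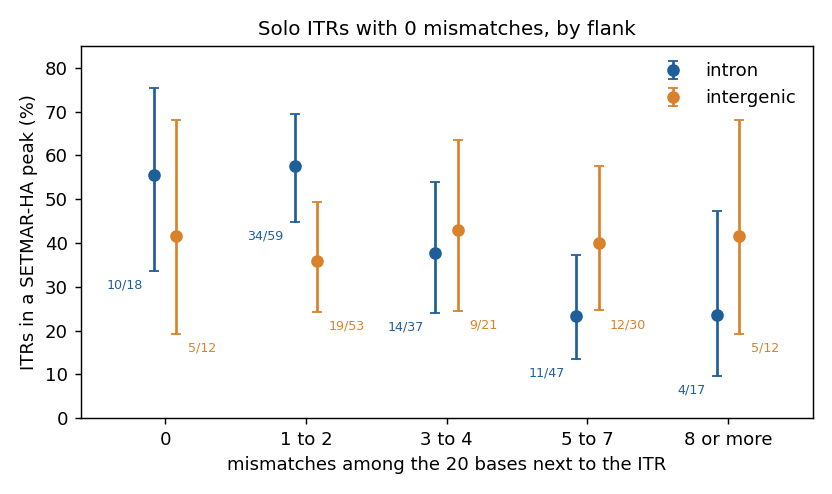
Share of solo ITRs with 0 mismatches that lay in a SETMAR-HA peak (y axis, %), by the number of mismatches among the 20 bases next to the ITR (x axis), for intron (blue) and intergenic (orange) ITRs. Bars are 95% Wilson intervals and the numbers are ITRs in a peak of all ITRs. The intron shares stand at 55.6% and 57.6% in the 2 classes with the fewest mismatches and at 23.4% and 23.5% in the 2 with the most, while the intergenic shares run from 35.8% to 42.9%.

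The introns that held a peak spanned 3 orders of size. Their length had a median of 28045.5 bp, an interquartile range of 7038 to 75865.5 bp and extremes of 411 and 540803 bp. In all, 58 peaks lay in introns over 100000 bp and 6 in introns under 1000 bp. The longest belonged to RORA, a nuclear receptor (intron 1, 540803 bp), LHFPL3 (intron 1, 407450 bp), LRRC4C, a synaptic adhesion protein (intron 2, 328420 bp), RTL4 (intron 2, 323398 bp) and DLG2, a postsynaptic scaffold protein (intron 3, 313291 bp). After LRCH3, the shortest belonged to NBN, a member of the complex that senses DNA breaks (intron 2, 719 bp), KCP, a secreted modulator of BMP signalling (intron 4, 737 bp), RNF149, a ubiquitin ligase (intron 2, 848 bp) and DNAJC10, a disulphide reductase of the endoplasmic reticulum (intron 10, 854 bp).

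The intron's length and its rank in the transcript were compared between intron loci in a peak and intron loci outside peaks, and neither difference passed the threshold. Introns over 100 kb held 134 of 414 loci in a peak (32.4%, 95% Wilson interval 28.0 to 37.0) and 1385 of 3947 loci outside peaks (35.1%, 33.6 to 36.6), a difference of -2.72 points with an interval of -7.30 to 2.16 (Fisher's exact test, two-sided, adjusted p = 0.401). In the GENCODE annotation used for loci, the intron of a bound locus had a median length of 46612.5 bp and that of an unbound locus 58068 bp. These medians were not tested and are not of the same introns as the lengths from the deposited list given above. The first intron of the transcript held 30.2% of loci in a peak and 29.2% of loci outside peaks, a difference of 1.03 points (-3.43 to 5.83, Fisher's exact test, adjusted p = 0.747). It was 6.33 points with peaks at least 500 bp wide only (-0.355 to 13.6) and 4.49 points with protein-coding genes only (-0.598 to 10). Among the peaks of the list, 107 of 330 lay in the first intron, whose median length was 44100.0 bp, against 18781 bp for the 223 peaks in later introns.

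The peak centre lay at a median of 50.5% of the intron's length from its upstream end, with an interquartile range of 27.7 to 75.4%, and the 5 equal parts of the intron, from the upstream end on, held 56, 75, 69, 64 and 66 peaks. Loci upstream of the intron's midpoint made up 52.2% of intron loci in a peak and 49.1% of those outside peaks, a difference of 3.05 points with an interval of -2.01 to 8.07 (Fisher's exact test, two-sided, adjusted p = 0.401). With peaks at least 500 bp wide only, this difference was 8.55 points (1.17 to 15.6, Fisher's exact test, adjusted p = 0.0955), and with protein-coding genes only it was 0.678 points (-5.13 to 6.47). A solo ITR was on the strand of its host gene in 96 of 167 cases in a peak (57.5%, 49.9 to 64.7) and in 1388 of 2730 outside peaks (50.8%, 49.0 to 52.7), a difference of 6.64 points with an interval of -1.17 to 14.1 (Fisher's exact test, adjusted p = 0.376). With protein-coding genes only, the cases were 78 of 130 and 951 of 1870. This difference of 9.14 points had an interval of 0.26 to 17.5 and did not pass the threshold (Fisher's exact test, adjusted p = 0.256).

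**Figure D4:**
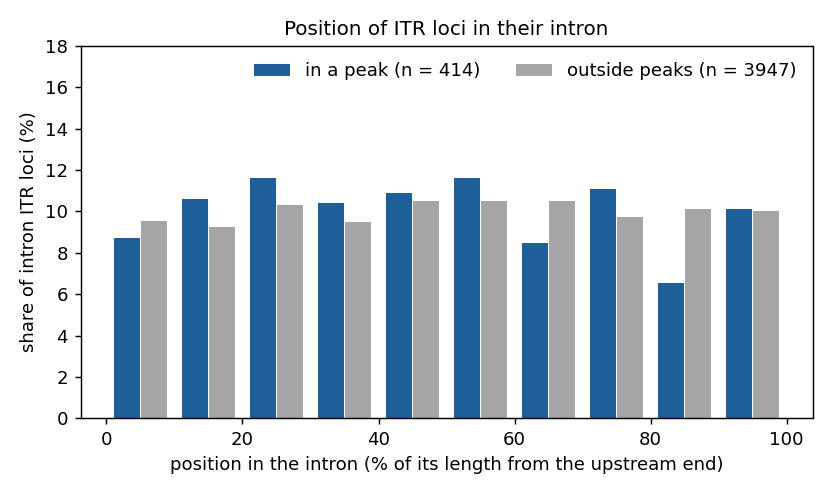
Share of intron ITR loci (y axis, %) in each 10% of the intron's length from its upstream end (x axis), for the 414 loci in a SETMAR-HA peak (blue) and the 3947 loci outside peaks (grey). The shares of loci in a peak run from 6.52% to 11.6% and those of loci outside peaks from 9.25% to 10.5%.

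Few peaks touched an exon. Centres lay at a median distance of 5385.5 bp from the nearest end of its intron, within 1000 bp in 71 peaks and within 100 bp in 5. Loci within 1 kb of an exon made up 14.5% of intron loci in a peak (60 of 414, 95% Wilson interval 11.4 to 18.2) and 12% of those outside peaks (475 of 3947, 11.1 to 13.1), a difference of 2.46 points with an interval of -0.782 to 6.30 (Fisher's exact test, two-sided, adjusted p = 0.401). The 5 nearest centres were in C1orf94 (7 bp from the end of intron 1), the host of the non-coding transcript NR_031666 (58 bp), RANBP3L (60 bp), AADAC, a hydrolase of the endoplasmic reticulum (63 bp), and LRCH3 (72 bp).

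In 17 peaks the peak itself reached past the bounds of the intron. RANBP3L reached farthest, by 290 bp, followed by SLC26A4, the anion exchanger pendrin (248 bp), LINC02509 (234 bp), KCP (200 bp), C1orf94 (194 bp) and AADAC (138 bp). LRCH3 and HLA-DMB, part of the complex that loads peptides onto MHC class II, reached 129 bp past. FBXL7, an F-box protein, reached 119 bp past, TTN, which encodes the giant sarcomere protein titin, 95 bp, and RYR2 92 bp. The others reached 23 to 56 bp past and were in MTFMT, PREX2 (both peaks), NR_031666, LRBA and PRKAR1A, the regulatory subunit of protein kinase A.

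**Figure D5:**
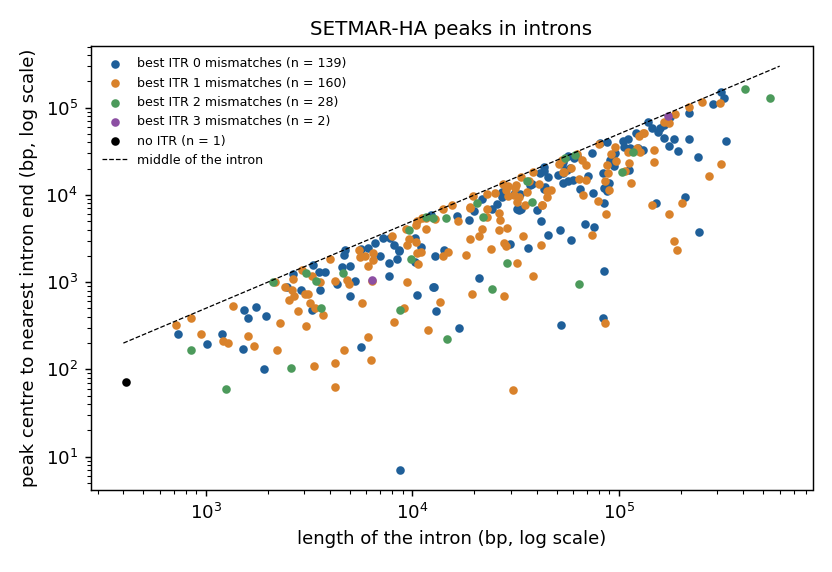
Distance from the peak centre to the nearest end of the intron (y axis, bp, log scale) against the length of the intron (x axis, bp, log scale) for the 330 intron peaks, coloured by the mismatches of the best ITR. Points on the dashed line lie at the middle of their intron. The introns run from 411 to 540803 bp and 71 centres lie within 1000 bp of an intron end.

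The widest intron peaks were found over several kinds of element. The peak of REC114, a protein of meiotic recombination, was the widest at 1100 bp and covered a pair of 53 bp with G19A facing G18A and G19C. Those of KCP and of the transcript NM_207385 were 900 bp wide. At 800 bp followed TIPRL, a regulator of protein phosphatase 2A, HRH2, the histamine H2 receptor, OPRM1, the mu opioid receptor, the long non-coding RNA FLJ40288, BDKRB2, the bradykinin B2 receptor, RORA and PRKCB. The best ITR of these 10 peaks had 0 mismatches in 6, 1 in 2 and 2 in 2, so a wide peak did not require an ITR of 0 mismatches. In OPRM1 an ITR of 0 mismatches faced G10A.

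In the RORA element A12T and G18A faced T3C, G4A and G18A, so neither ITR had fewer than 2 mismatches under a peak of 800 bp. In BDKRB2 the better ITR carried A12C. Widths come in steps of 100 bp and carry no error, so neighbouring widths were not compared.

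The 330 peaks lay in 312 host genes, of which 267 were protein-coding, 42 long non-coding and 1 of another RNA type, while 2 accessions (NM_207385 and NR_031666) were not matched to a gene at the peak in the RefSeq table. The 267 were 1.33% of the 20056 protein-coding genes of that table. Coding hosts were long, with a median of 179983 bp and a range of 6393 to 2473620 bp, against a median of 24092.5 bp for all coding genes. The part of gene length in counts of hosts was not tested.

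More than 1 intron peak was found in 17 genes, and EXOC6B, which encodes a subunit of the exocyst that tethers secretory vesicles to the plasma membrane, was the only gene with 3. Its peaks were 300, 300 and 700 bp wide, each over an ITR of 0 mismatches, and the 2 peaks nearer the gene's start shared intron 1. PRKCB, which encodes protein kinase C beta, and RARB, the retinoic acid receptor beta, also had both of their peaks in the same intron. The PRKCB peaks were 700 and 800 bp wide, with centres 7150 bp apart in intron 3, the smallest distance between peaks of any gene. The RARB peaks were 500 and 300 bp wide, with centres 33100 bp apart in intron 4. In all 3 genes the shared intron held a lone ITR of 0 mismatches and a pair, and in EXOC6B the centres of these peaks lay 74900 bp apart. The RARB pair is the element printed above, with A9G facing T3G, A6G and A13T, and in PRKCB an ITR of 0 mismatches faced A12C and C17T.

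The other 14 genes had 2 peaks in introns with different bounds. Those named here of the synapse and of excitable cells were LRRC4C, CSMD1, a membrane protein that regulates complement, GRIK1, a kainate receptor subunit, RYR2, the calcium release channel of the heart, and DTNA, a dystrobrevin of the dystrophin-associated complex. Their peaks were 200 to 700 bp wide. Both peaks had an ITR of 0 mismatches in LRRC4C and CSMD1, and the best ITR had 0 and 1 mismatches in GRIK1 and DTNA and 2 and 1 in RYR2. Genes of signalling and transport were DGKB, PREX2, an exchange factor for Rac, and SLC15A1, the intestinal peptide transporter, whose peaks were 700 bp wide over a best ITR of 1 mismatch and 600 bp wide over an ITR of 0 mismatches. Further genes were ARID5B, a DNA-binding regulator of transcription, ARSG, a lysosomal sulphatase, CEP112, FHIP1A, part of an adaptor for dynein, and RBM47, an RNA-binding protein. Over the 17 genes the median gene length was 403064 bp, and the centres of their peaks lay 7150 to 1149550 bp apart.

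Both ARID5B peaks, 600 and 700 bp wide, covered a lone ITR of 0 mismatches, while both ARSG peaks, 600 bp wide each, covered a pair. The ARSG pairs differed in their better ITR, which had 0 mismatches in intron 5 and A12T and A13G in intron 9, the element printed above.

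Host genes were grouped into 10 families by patterns in their symbols, and each count stands beside the 1.33% of all coding genes. Of all 330 intron peaks, 139 (42.1%) had a best ITR of 0 mismatches and 160 of 1 mismatch. Whether the peaks of any family differ from these shares was not tested. The patterns do not take in every gene of that function, so each count is of the symbols matched and not of the whole family. Hosts they left out include RORA, RARB and ARID5B among regulators of transcription, PREX2 among GTPase regulators and SIK3 among protein kinases. Growth factors and their receptors had 7 of 127 members with an intron peak (5.51%), with FGF1, EFNA5 and ANGPT1 among the ligands. The peak of NTRK2, the receptor of the neurotrophin BDNF, was 600 bp wide over an ITR of 0 mismatches, and that of FGF1 was 600 bp wide over a best ITR of 1 mismatch. In this list 2 of the 7 peaks had a best ITR of 0 mismatches. Extracellular matrix genes and their proteases had 7 of 142 (4.93%), led by the collagens COL14A1, COL28A1 and COL13A1 and the protease ADAM9, with an ITR of 0 mismatches in 1 of the 7 peaks. Cell adhesion molecules had 7 of 157 (4.46%), with the neurexin NRXN3, the catenin CTNNA3 and the contactin CNTN6. An ITR of 0 mismatches was found in 3 of their 8 peaks. Enzymes of cyclic nucleotides and phosphoinositides had 5 of 112 (4.46%), with the phosphodiesterases PDE7B and PDE4D, DGKB and the adenylyl cyclase ADCY8, and the best ITR had 0 mismatches in 4 of their 6 peaks.

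Ion channels had 9 of 223 members with an intron peak (4.04%), 11 peaks in all. They included the calcium channel subunits CACNA2D1 (700 bp) and CACNA1A (600 bp), both with an ITR of 0 mismatches, GRIK1, and the glycine receptor subunit GLRA3. Of the 11 peaks, 4 had a best ITR of 0 mismatches and 6 of 1 mismatch. Matched GTPase regulators had 6 of 174 (3.45%), with SOS1, the exchange factor for Ras, RALGPS1, ARHGAP22 and DOCK6, and 5 of their 6 peaks had a best ITR of 1 mismatch. Matched protein kinases had 10 of 323 (3.10%), 11 peaks in all, with PRKCB, NTRK2, the MAP kinase kinase kinase MAP3K20 and PAK2 carrying the widest. The best ITR had 1 mismatch in 8 of these 11 peaks and 0 in 3.

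Membrane transporters had 11 of 444 members with an intron peak (2.48%), and the best ITR had 0 mismatches in 9 of their 12 peaks, with SLC26A4, SLCO5A1, SLC15A1 and SLC7A14 the widest. Ubiquitin enzymes and adaptors had 7 of 431 (1.62%), among them FBXL7, KLHL29 and TRIM50, and 3 of their 7 peaks had a best ITR of 0 mismatches. The symbols matched as transcription factors, mostly zinc finger genes by number, had 5 of 776 (0.644%), with ZNF521, ZNF277, TCF12 and RUNX1. Of their 5 peaks, 1 had a best ITR of 0 mismatches. The median gene length of these lists ran from 23538 bp for transcription factors to 120343 bp for cell adhesion molecules, and it was 66760.0 bp for ion channels and 80517 bp for protein kinases. It was 46955 bp for growth factors and their receptors, the list with the highest share. The part of gene length in these counts was not tested.

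Some of the introns that held a peak held further ITRs. The 327 distinct introns contained 386 ITR loci, of which 59 lay outside peaks, spread over 44 introns. The best ITR of these 59 had 0 mismatches in 2, 1 in 23, 2 in 18 and 3 in 16. Since the introns were chosen for holding a peak, these counts are a description and were not compared with other introns.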

How the data were processed

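SETMAR-HA ChIP and input chromatin of HAP1 cells were profiled by ChIP-seq, 1 sample each. By the submitters' processing notes and the study's methods, the authors aligned their reads with Bowtie2 2.3.4.1 to GRCh38 (hg38), removed duplicates with Picard, used SAMtools 1.10, computed coverage in 100 bp bins with deepTools 3.3.1, called peaks with MACS2 2.2.6, removed peaks also present in the input with bedtools 2.29.0 and annotated the rest with HOMER categories. The study's text gives the doxycycline dose as 0.5 µg/ml in 1 place and as 0.5 µM in another. The deposited values are positions in bp of peaks and of the intron that holds each centre, with no height, score or p-value, so depth is unknown and precision is that of the number of peaks or loci. Starts were converted to 1-based positions. No column of per-sample values was left unused (0).

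ITRs were found by matching the consensus, the most frequent sequence in the study's sheet of ITRs, to chromosomes 1 to 22 and X on both strands, allowing 3 mismatches and no gaps. For overlaps, 500 bp were added at each side of a peak. Genes and introns for loci came from GENCODE release 44 (a promoter ran from 1000 bp before to 100 bp after a start and took precedence over exon and intron), and host symbols and lengths from the RefSeq table by accession (328 of 330 matched). Shares have Wilson intervals, differences Newcombe intervals, and tests are two-sided Fisher's exact tests adjusted over 17 comparisons, with a logistic model (statsmodels 0.14.6, scipy 1.17.1, numpy 2.4.6, Python 3.11.15, matplotlib 3.10.9). Scripts were tested on simulated sequence and shares.

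Named genes were those with more than 1 intron peak, the 10 widest peaks, the 5 longest and 5 shortest introns, the 5 centres nearest to an exon, peaks past their intron, peaks on X, peaks with a best ITR of 3 mismatches or none, and up to 4 members of each family list. Family lists were patterns of gene symbols and are not complete. Members, lists and rules were chosen with earlier results of these data known. Alternatives were other extensions, mismatch limits, locus distances, wide peaks only, autosomes only and other annotations. Some genes and the sequences of most elements are not reported here. Expression and qPCR data were not analysed here.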

Additional observations from a re-analysis of the deposited data

Results flagged for a closer look

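The dependence on neighbouring bases, counted over 20 positions, stood out because it differed between locations. Single positions did not all differ in this way. At base 1 on the inner side the share was lower without the shared base at both locations. Among solo ITRs of 0 mismatches in introns, those with at most 2 mismatches in the 20 neighbouring bases lay in a peak more often than the others by 28.4 points (44 of 77 against 29 of 101), while among intergenic ones the difference was -4.35 points (24 of 65 against 26 of 63). The difference between the locations was tested with an interaction term chosen after seeing the data (ratio of odds ratios 3.97, 95% interval 1.54 to 10.2, not adjusted). The comparison is of 306 ITRs in 1 list, without a replicate list in which it could be repeated. With 1 mismatch in the ITR, the difference between the classes of neighbouring bases was not larger in introns than at intergenic sites.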

How the results depend on the processing

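Of 122 values recomputed for 22 results, 106 kept their direction and their side of the threshold, or moved within their interval. The difference of paired and solo intron loci with 1 mismatch passed the threshold under every alternative run. With peaks at least 500 bp wide only, the difference in pairs between intron and intergenic peaks turned to 3.54 points, that in loci of 2 and 3 mismatches to 0.176 and 0.0957 points, that in loci within 1 kb of an exon to -0.892 points and that of paired and solo loci of 3 mismatches to -0.109 points, the share of intron peaks with an ITR moved to 100% and the number of genes with several intron peaks to 8. The odds ratio of intron loci was 1.03 with these peaks, 1.01 with at most 2 mismatches and 1.11 with protein-coding genes. Intron loci of 0 mismatches differed by -0.962 points on autosomes, those of 2 mismatches by 0.338 points with protein-coding genes and those of 3 mismatches by 0.0229 points with a locus distance of 100 bp. None of these differences and odds ratios passed the threshold before or after, and the cause was not tested. The neighbouring bases gave 16.6 points with a limit of 1 mismatch (Fisher's exact test, unadjusted p = 0.0577) and -4.35 points in intergenic ITRs, both added after seeing the data. The median intron length was 36417 bp with GENCODE introns. No paired analysis was possible because each group held 1 sample. The list gives no score or height, so how firmly a peak was called could not be weighed.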

Other observations

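The miR-548 family of microRNAs, whose hairpins derive from MADE1 elements, lay at the edge of the intron category. Of 72 MIR548 genes in the annotation, 70 held or touched an ITR and 11 were overlapped by 10 peaks. Of all ITR loci, 9.4% lay in a peak, 45.6% of those with a best ITR of 0 mismatches and 13.1% of those with 1, and whether the MIR548 genes differ from other loci was not tested. All 10 of these peaks were annotated as promoter and 0 as intron in the deposited list. When miRNA genes were left out of the annotation, 7 of the 10 lay in introns of other genes, among them RASSF3, a Ras association domain protein (intron 1 of 4), RMI2, a subunit of the complex that dissolves recombination intermediates (intron 1 of 2), ATP6V0A1, a subunit of the vacuolar proton pump (intron 12 of 21), and RALGAPB, a regulator of Ral GTPases (intron 7 of 29). The peak in RASSF3 covered both MIR548Z and MIR548C, which lie on opposite strands of the same element with an ITR of 0 mismatches.

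For ITRs other than the solo ones of 0 mismatches, the shares by neighbouring bases were as follows. Intron solo ITRs with 1 mismatch lay in a peak in 41 of 375 cases with at most 2 mismatches in the 20 neighbouring bases (10.9%, 95% Wilson interval 8.16 to 14.5) and in 35 of 427 with more (8.20%, 5.95 to 11.2). Intron loci with a pair and a best ITR of 0 mismatches did so in 57 of 99 (57.6%, 47.7 to 66.8) and 52 of 117 (44.4%, 35.8 to 53.5), and those with 1 mismatch in 57 of 307 (18.6%, 14.6 to 23.3) and 62 of 347 (17.9%, 14.2 to 22.2). The intergenic counterparts were 30 of 255 (11.8%, 8.37 to 16.3) and 25 of 393 (6.36%, 4.35 to 9.22) for solo ITRs with 1 mismatch, 35 of 75 (46.7%, 35.8 to 57.8) and 40 of 84 (47.6%, 37.3 to 58.2) for pairs with a best ITR of 0, and 41 of 195 (21.0%, 15.9 to 27.3) and 36 of 253 (14.2%, 10.5 to 19.1) for pairs with 1. With 1 mismatch the share was thus higher for ITRs with few neighbouring mismatches at both locations, and by more points at intergenic sites than in introns. In both classes of neighbouring bases and at both locations, pairs with a best ITR of 1 mismatch lay in a peak more often than solo ITRs of 1. The differences by neighbouring bases, and those between intergenic pairs and solo ITRs, were not tested.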
